A study of Homo sapiens with 6 samples.

Results

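S100 genes encode small calcium-binding proteins, and 7 of them from the cluster on chromosome 1 (S100A2, S100A4, S100A6, S100A10, S100A11, S100A13 and S100A16) were followed by gene symbol among the 28495 genes of a table of mRNA levels. All 7 were found, and 6 of them were abundant enough to be tested. The cells were NCI-H1299, an established human line labelled as lung adenocarcinoma. In 3 libraries complement factor B (CFB) was silenced (sh-CFB), and 3 control libraries carried a non-targeting construct (sh-NC). The titles name short hairpins while the table's columns carry names used for small interfering RNA, so the form of the reagent is not settled here. The sources used here give no time point, clone or pool, and nothing in them ties a replicate to a culture of its own. Each p-value therefore covers the spread between these libraries alone, which may be technical.

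S100 proteins are built from a pair of EF-hands, helix-loop-helix motifs that hold calcium, and they mostly act as dimers. On binding calcium they open a surface that grips other proteins, among them annexins and non-muscle myosin, and some are released from cells and signal through the receptor RAGE. S100A10 is the exception, since its loops do not bind calcium and it sits in a standing complex with annexin A2. In lung and other carcinomas S100A4 is known for its link with cell motility and metastasis, S100A6 and S100A11 for growth and stress responses, and S100A2 for its variable expression in squamous and glandular tumours.

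The members lie in the same orientation, on the reverse strand, and yet the bases before their starts differ, which is shown here beside the range of their mRNA levels. Each stretch comes from the RefSeq promoter table (GRCh38.p14), is written 5′ to 3′ on the reverse strand, and has matches to a TATA box (TATAAA) or a GC box (GGGCGG) in capitals. For S100A4 (chr1:153545820-153545849), S100A13 at the second of its 3 starts (chr1:153627517-153627546), S100A6 (chr1:153536057-153536086), S100A10 (chr1:151994009-151994038) and S100A11 (chr1:152037055-152037084), 30 bases around the match are given.
S100A4: gcctggctggggTATAAAtaggtcagacct
S100A13: ttccccgctgctTATAAAcctcagccctga
S100A6: ggcgcGGGCGGgacttGGGCGGGCGGggtg
S100A10: acgctctgtctgGGGCGGgcgaggcctctg
S100A11: ggaggcggggagGGGCGGggcaggcgcgga
The stretches of S100A4, S100A13, S100A6 and S100A10 also lie within exons of the same genes in GENCODE 29, whose annotated starts differ. The TATA box of S100A4 began 31 bases before the start, and the 3 GC boxes of S100A6, of which a pair overlap, began 90, 79 and 75 bases before it.

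The 250 bases before the starts were searched on both strands for the same motifs and for the AP-1 motif TGANTCA, the site bound by FOS and JUN proteins. All 7 members matched the table, with 11 starts in all. A TATA box stood in 2 of the 11 windows, against 10.7% of 35116 promoter windows in the table, a GC box in 5, against 42.6%, and an AP-1 motif in 1, against 6.57%. These matches are letters in a window and say nothing about binding. The AP-1 match was in S100A2 at the first of its starts (chr1:153565845-153566094), where TGACTCA is in capitals. The window of S100A16 at its second start (chr1:153609356-153609605) is set beside it, with its GC box in capitals.
S100A2: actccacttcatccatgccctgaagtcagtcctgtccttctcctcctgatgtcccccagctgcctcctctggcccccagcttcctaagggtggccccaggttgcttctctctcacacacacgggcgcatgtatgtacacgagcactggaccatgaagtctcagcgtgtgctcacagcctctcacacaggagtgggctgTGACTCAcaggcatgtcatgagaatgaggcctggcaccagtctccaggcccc
S100A16: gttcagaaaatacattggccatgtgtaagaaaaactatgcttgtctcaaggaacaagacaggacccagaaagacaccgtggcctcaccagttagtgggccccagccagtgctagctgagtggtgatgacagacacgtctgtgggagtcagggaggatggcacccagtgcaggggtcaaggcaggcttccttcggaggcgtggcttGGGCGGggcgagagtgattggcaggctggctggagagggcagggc
CpG pairs numbered 24 in the windows of both S100A6 and S100A10, 15 in that of S100A11 and 7 in that of S100A4. At successive starts they numbered 4 and 3 in S100A2, 15, 10 and 8 in S100A13, and 1 and 6 in S100A16. The median was 11 (quartiles 3 and 23) over all windows. S100A6 and S100A10 had equal CpG counts, while the mRNA of S100A6 was the least abundant of the members and that of S100A10 among the most abundant.

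Levels are FPKM, fragments per kilobase of gene and per 1e6 reads, as the authors deposited them. The library totals behind them ran from 26.2 to 38.4 M reads (M, 1e6) in sh-CFB and from 32.9 to 40.0 M in sh-NC. CFB itself was close to undetected, with 2 reads in all sh-CFB libraries and 12 in all sh-NC libraries, and the silencing could not be checked in single libraries. Principal component 1, with 56.6% of the variance, set sh-CFB replicate 1 (-0.74) and sh-NC replicate 1 (0.60) at its ends, and the deviations of these libraries followed GC content across genes (Spearman 0.60 and -0.55). The lung lineage markers NKX2-1 (0.154 and 0.261 FPKM in sh-CFB and sh-NC) and NAPSA (0.156 and 0.205) and the epithelial adhesion genes EPCAM (0.0515 and 0.0603) and CDH1 (0.00286 and 0) were at or near 0, while the mesenchymal filament gene VIM averaged 434.8 ± 42.9 FPKM in sh-CFB and 407.4 ± 34.3 in sh-NC (SD, n = 3 each) and the keratin gene KRT18 162.9 ± 35.3 in sh-CFB and 172.9 ± 34.4 in sh-NC. Of the other lung epithelial keratin genes, KRT8 averaged 48.4 FPKM in sh-CFB and 40.0 in sh-NC, KRT7 1.54 and 1.40, and KRT19 0.154 and 0.0738. Other mesenchymal markers lay far below VIM, with means in sh-CFB and sh-NC of 1.81 and 2.21 FPKM for CDH2, 1.5 and 1.82 for FN1, and 2.33 and 2.10 for ZEB1. These genes were detected, at percentiles 71.8, 69.5 and 72.9 of the listed genes, while SNAI2 was near 0 (0.00529 and 0). Marker lists of immune, fibroblast, endothelial and erythroid cells summed to at most 0.263 FPKM in any sh-CFB library and 0.287 in any sh-NC library.

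The 7 members spanned levels from near 0 to among the highest in the table. S100A11 and S100A10 averaged 580.1 ± 55.1 and 439.8 ± 25.8 FPKM over the 6 libraries (SD, n = 6), each at percentile 99.7 of the listed genes. S100A16, a broadly expressed member whose gene lies between S100A2 and S100A13, followed with 55.5 ± 5.49 FPKM. S100A13 (15.6 ± 2.16), S100A2 (15.6 ± 2.10) and S100A4 (9.03 ± 2.84) came next, and S100A6 stood last with 0.109 ± 0.116. S100A10 and S100A11 together held 89.9% to 90.2% of the summed FPKM of all 12 S100 genes listed in the sh-CFB libraries, and 91.9% to 92.4% in the sh-NC libraries.

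Members next to each other in that order were compared by the log2 ratio of their FPKM within each library, as a description with no test, since the same values set the order. In 5 of the 6 pairs the upper gene was higher in 6 of 6 libraries. S100A11 was 1.32-fold above S100A10, S100A10 7.93-fold above S100A16, S100A16 3.55-fold above S100A13, and S100A2 1.72-fold above S100A4, as ratios of mean FPKM. The order of S100A11 and S100A10 rests on the division by length, as S100A10 had more recovered reads in every library. The recovered lengths were 649 bases for S100A11 and 1012 for S100A10, the latter not within 10% of the annotated exon length. S100A4 was above S100A6 in every library, and no fold is given because S100A6 had fewer than 3 reads in 4 of the 6. S100A13 and S100A2 were not separated, with S100A13 the higher in 2 of 6 libraries and log2 ratios from -0.15 to 0.30.

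**Figure D1:**
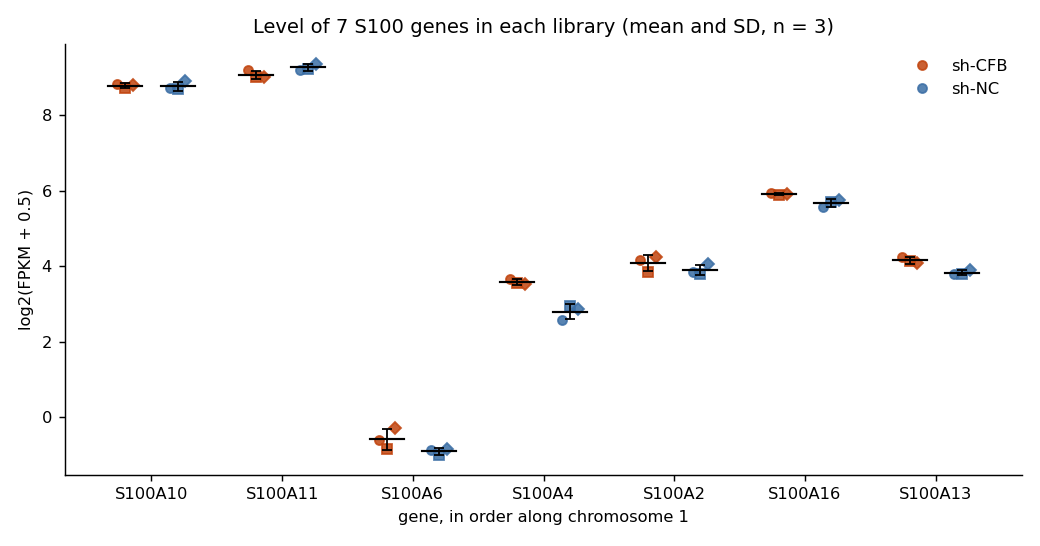
Level of each of the 7 S100 genes as log2(FPKM + 0.5), in order along chromosome 1, in sh-CFB (orange) and sh-NC (blue) libraries. Circles, squares and diamonds are replicates 1, 2 and 3, and bars give the mean and SD of 3 libraries; S100A10 and S100A11 stand highest, and S100A6, between them and the other members, stands lowest.

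S100A4, which binds non-muscle myosin IIA and is linked with motility and metastasis, rose in sh-CFB. Its gene (ENSG00000196154) covers chr1:153543613-153550136 in GENCODE 29 on GRCh38, on the reverse strand. Its level was 12.2, 11.4 and 11.0 FPKM in sh-CFB replicates 1, 2 and 3, against 5.44, 7.31 and 6.80 FPKM in sh-NC replicates 1, 2 and 3. The lowest sh-CFB library lay above the highest sh-NC library, and sh-NC replicate 1 was the lowest of all. The means were 11.5 ± 0.577 FPKM in sh-CFB and 6.52 ± 0.969 in sh-NC (SD, n = 3 each). In log2(FPKM + 0.5) units sh-CFB stood above sh-NC by 0.79 (SE 0.13, 95% interval 0.48 to 1.10, or 1.73-fold), with an adjusted p = 0.0182 by limma's moderated test with Benjamini-Hochberg adjustment over 12466 genes.

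S100A4 was the only one of the 6 tested members that passed. Among all tested genes 1.74% were called higher in sh-CFB, 5.71% lower and 7.45% in either direction. At an unadjusted p under 0.05 by limma, 3 members were higher and 0 lower, where 7.28% of all tested genes were higher and 18.6% lower. Of the 217 genes called higher, 60 had a log2 fold change at least as large as that of S100A4. The call was lost without sh-CFB replicate 2 (0.79, adjusted p = 0.0764) and without sh-NC replicate 2 (0.87, adjusted p = 0.0843), where 8 and 6 of all tested genes were called higher by limma, and with median-of-ratios factors the difference was 0.98 (adjusted p = 0.0554). S100A4 was higher in sh-CFB under all 17 alternative settings, with adjusted p-values from 0.00928 to 0.184 by limma. As its groups did not overlap, leaving out libraries or changing the pseudocount could not have turned that direction. S100A4 stood at 0.79 (adjusted p = 0.00928) once GC content and length were corrected for and at 0.63 (adjusted p = 0.0273) without both replicate 1 libraries. In bulk RNA a change per cell and a change in the share of cells that express a gene cannot be told apart.

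**Figure D2:**
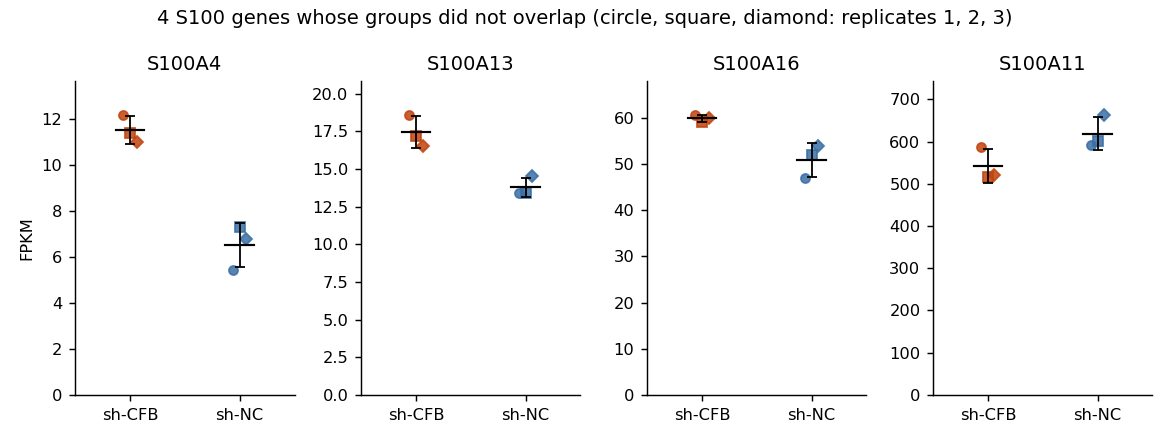
FPKM of the 4 members whose sh-CFB (orange) and sh-NC (blue) libraries did not overlap; circles, squares and diamonds are replicates 1, 2 and 3, and bars give the mean and SD (n = 3 each). S100A4 averaged 11.5 FPKM in sh-CFB and 6.52 in sh-NC, and S100A13, S100A16 and S100A11, which did not pass the test, had smaller fold changes.

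S100A13 and S100A16, neighbours at the far end of the cluster, showed smaller differences that did not pass the test. S100A13, which takes part in the export of FGF1 from cells, had 18.6, 17.2 and 16.5 FPKM in the sh-CFB libraries, against 13.4, 13.4 and 14.5 in the sh-NC libraries. The groups did not overlap, and the log2 difference was 0.33 (SE 0.10, 95% interval 0.10 to 0.56, adjusted p = 0.0844 by limma). With GC content and length corrected for, it was 0.42 (adjusted p = 0.0212 by limma), and 2 members then passed, S100A4 and S100A13, both higher. Of all tested genes that correction called 4.69% higher and 6.10% lower. S100A13 shares 235 exon bases with S100A1 on the opposite strand, and without a stated strand setting reads from these bases cannot be assigned. It also shares 536 of its 2216 exon bases with the transcript AL162258.1 on the same strand, which was not among the listed genes and which a strand setting would not separate.

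S100A16 had 60.7, 59.2 and 60.0 FPKM in the sh-CFB libraries and 46.9, 51.9 and 53.9 in the sh-NC libraries. Here too the groups did not overlap, and the sh-CFB libraries lay closer together, with a coefficient of variation of 1.28% in sh-CFB and 7.03% in sh-NC. The log2 difference was 0.24 (SE 0.09, 95% interval 0.03 to 0.44, adjusted p = 0.149 by limma). S100A2, a member of variable expression in carcinomas, had 17.6, 13.9 and 18.4 FPKM in the sh-CFB libraries and 13.9, 13.5 and 16.1 in the sh-NC libraries. Its groups overlapped, since sh-CFB replicate 2 stood at the level of the lower control libraries, and the log2 difference was 0.19 (95% interval -0.13 to 0.50, adjusted p = 0.428 by limma). In 3 members, S100A4, S100A13 and S100A16, every sh-CFB library lay above every sh-NC library, as in 10.0% of all tested genes.

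The most abundant pair passed the test in neither direction. S100A10, the light chain of the annexin A2 complex that brings plasminogen activators to the cell surface, had 456.9, 420.0 and 449.1 FPKM in the sh-CFB libraries, against 420.4, 413.6 and 478.6 in the sh-NC libraries. The highest and the lowest values both belonged to sh-NC, and the log2 difference was 0.02 (SE 0.10, adjusted p = 0.938 by limma), with a 95% interval from -0.23 to 0.26. S100A11, a partner of annexin A1, had 587.9, 517.0 and 520.2 FPKM in the sh-CFB libraries and 591.6, 600.4 and 663.8 in the sh-NC libraries. Every sh-CFB library lay below every sh-NC library, as in 23.6% of all tested genes, with sh-CFB replicate 1 and sh-NC replicate 1 nearly level. Its log2 difference was -0.19 (SE 0.11, 95% interval -0.44 to 0.06, adjusted p = 0.311 by limma), and 0.01 with median-of-ratios factors, which moved the median tested gene by 0.16 from -0.15 to 0.02. S100A10 stood at -0.04 with totals made equal, so the direction of both genes depended on the scaling.

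S100A6, or calcyclin, whose gene lies 7.4 kb from S100A4, was close to undetected. Its level was 0.157, 0.0617 and 0.322 FPKM in the sh-CFB libraries, against 0.0522, 0 and 0.0625 FPKM in the sh-NC libraries. These values correspond to 4, 2 and 12 reads in the sh-CFB libraries and 2, 0 and 2 reads in the sh-NC libraries, where 3 reads amount to 0.0772 to 0.118 FPKM depending on the library. All sh-CFB libraries together held 18 S100A6 reads in 98.0 M, and all sh-NC libraries 4 in 112.4 M. The rate was 5.16 times as high in sh-CFB, with a 95% counting interval (exact) from 1.70 to 21.0 that takes reads as independent. Over libraries the groups overlapped, with 12 of the 18 sh-CFB reads in replicate 3 and a two-sided exact permutation p = 0.2. Every S100A6 value was an even number of reads. Counts of 2 were commoner than counts of 1 in genes of known length (8024 and 4682 library values), and where the mates of a pair were counted singly the interval is too narrow, which was not tested.

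The other S100 genes between the members were low as well. S100A3, which lies within the span of S100A4 without sharing exon bases, averaged 2.51 ± 0.585 FPKM in sh-CFB and 2.10 ± 0.367 in sh-NC (SD, n = 3 each; log2 difference 0.20, adjusted p = 0.581 by limma). S100A5 had 36 reads in all sh-CFB libraries and 32 in all sh-NC libraries, S100A1 44 and 67, S100A14 8 and 6, and S100P, which lies on chromosome 4, 3 and 7. Their groups overlapped in each case, with two-sided exact permutation p-values of 0.4 for S100A5, 0.6 for S100A1, 0.7 for S100A14 and 0.7 for S100P. The calgranulin genes S100A8, S100A9 and S100A12 and the psoriasin genes were not among the listed genes and were not analysed here.

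Neighbouring members were then compared for their response, as the log2 ratio of the gene nearer the long-arm end to the other within each library, which for abundant genes hardly depends on the scaling of that library. The ratio of S100A2 to S100A4 was 0.52, 0.27 and 0.71 in the sh-CFB libraries, against 1.28, 0.84 and 1.18 in the sh-NC libraries. The groups did not overlap, and the mean was 0.60 lower in sh-CFB (-0.60). This restates the log2 differences of 0.79 in S100A4 and 0.19 in S100A2 and is no separate result. The ratio of S100A11 to S100A10 was 0.36, 0.30 and 0.21 in the sh-CFB libraries, against 0.49, 0.54 and 0.47 in the sh-NC libraries, a difference of -0.21 without overlap. The ratio of S100A6 to S100A11, genes 1.49 Mb apart, differed by 0.51 without overlap and rests on the few reads of S100A6. Each of these 3 had a two-sided exact permutation p = 0.1, the smallest that 3 libraries against 3 allow, and 0.2 after adjustment over the 6 pairs. The share of other gene pairs without overlap is not given here.

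In the remaining pairs the groups overlapped. The ratio of S100A16 to S100A2 averaged 1.83 ± 0.19 in sh-CFB and 1.78 ± 0.11 in sh-NC (SD, n = 3 each; difference 0.05, exact permutation p = 0.7). That of S100A13 to S100A16, genes 5.6 kb apart, averaged -1.75 ± 0.08 in sh-CFB and -1.85 ± 0.07 in sh-NC (SD, n = 3 each; difference 0.09, exact permutation p = 0.2). Over all 6 libraries the ratio of S100A13 to S100A16 lay between -1.91 and -1.68. The ratio of S100A4 to S100A6 differed by 0.47 (exact permutation p = 0.2), and by -0.12 with a pseudocount of 0.1 in place of 0.5, so its direction was not determined.

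Genes of other families near the S100 genes were tested in the same way, and those that passed fell. Within 250 kb of the outermost S100 genes of chromosome 1, 12 other protein-coding genes were listed, and of the 9 tested 4 fell, 0 rose and 5 did not pass, with a median log2 difference of -0.52, against a median of 0.21 over the 6 tested members and -0.15 over all tested genes. Over all tested genes 5.71% were called lower and 1.74% higher. The difference between the members and the genes of other families was not tested as a group. Those that fell were ILF2, a double-stranded RNA-binding factor (-0.77, adjusted p = 0.00914 by limma), TDRKH, a factor of the piRNA pathway (-0.87, adjusted p = 0.0326), CHTOP, an mRNA export adaptor (-0.53, adjusted p = 0.0445), and SNAPIN, a SNARE-associated protein (-0.52, adjusted p = 0.0496). ILF2 had 94.3, 102.2 and 101.6 FPKM in the sh-CFB libraries and 163.7, 164.0 and 181.9 in the sh-NC libraries, with the groups far apart. TDRKH alone fell with median-of-ratios factors, and TDRKH and ILF2 with GC content and length corrected for. Without sh-CFB replicate 2 or without sh-NC replicate 2, 0 of the 9 passed by limma, and leaving out any other single library left 1 or 2.

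The closest such border among tested genes lies between S100A13 and CHTOP, 2.62 kb apart in GENCODE, and was picked after the values were seen. S100A1, which was not tested, reaches nearer to CHTOP there (chr1:153632039, against chr1:153631360 for S100A13). In RefSeq the window before the first start of S100A13 (chr1:153634362-153634611) lies within the GENCODE span of CHTOP (chr1:153633982-153646306). By that start the genes overlap on opposite strands, so the distance holds for GENCODE alone. The log2 ratio of S100A13 to CHTOP was 1.27, 0.93 and 0.79 in the sh-CFB libraries and 0.20, 0.10 and 0.10 in the sh-NC libraries. The groups did not overlap, and the ratio was 0.86 higher in sh-CFB (exact permutation p = 0.1, the smallest possible). GC content differs between the genes, at 55.1% in S100A13 and 45.8% in CHTOP. The highest ratio was in sh-CFB replicate 1, whose deviations followed GC content across genes. With GC content and length corrected for, S100A13 stood at 0.42 (adjusted p = 0.0212 by limma) and CHTOP at -0.24 (adjusted p = 0.271). The part of GC content in the ratio was not tested. At the other border the ratio of S100A10 to THEM4, 73.1 kb away, was 0.63 higher, with an exact permutation p = 0.1 as well. THEM4 averaged 0.578 FPKM in sh-CFB and 1.17 in sh-NC, levels at which the pseudocount of 0.5 weighs on the ratio. It did not pass the test (adjusted p = 0.0792 by limma), and its GC content was 42.4%, against 56.2% in S100A10.

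**Figure D3:**
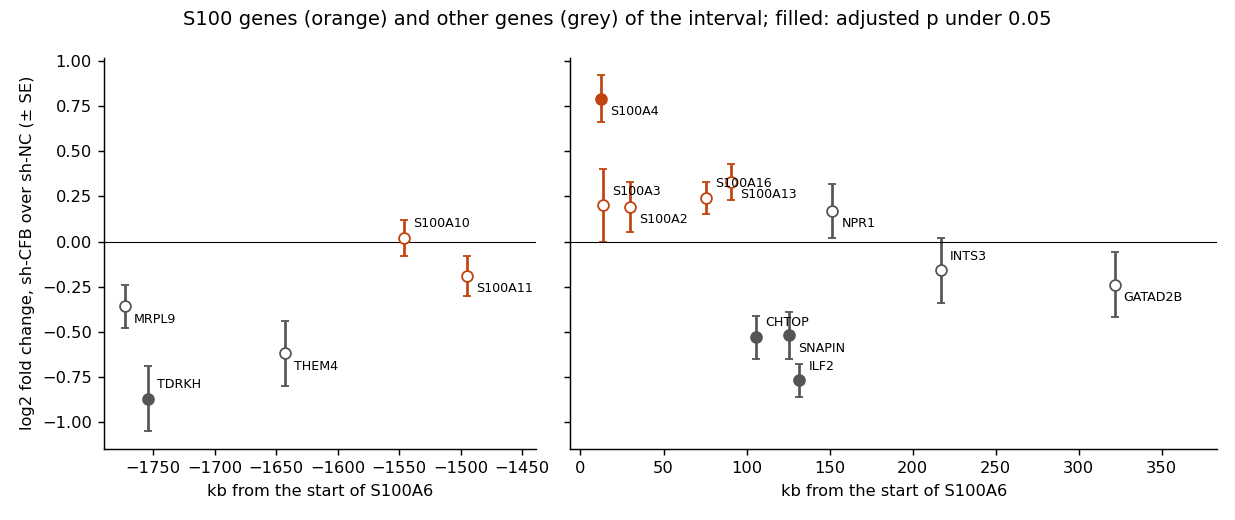
Log2 fold change, sh-CFB over sh-NC, with its SE, against the distance in kb of the gene's midpoint from the start of S100A6, for tested S100 genes (orange) and other tested protein-coding genes (grey) of the interval; filled points passed the test. The left panel holds the part around S100A10 and S100A11 and the right panel the rest; S100A4 (0.79) is the one filled S100 gene, and ILF2, TDRKH, CHTOP and SNAPIN are the filled others, all below 0.

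Most genes for partners of the members did not pass the test, and those that passed fell. Over all tested genes, too, more were called lower (5.71%) than higher (1.74%). Of 8 tested annexins, calcium-dependent membrane binders of which several dock to S100 proteins, 1 fell, 0 rose and 7 did not pass, with a median log2 difference of -0.28. The one that fell was ANXA2, the partner of S100A10, with 40.3, 38.7 and 42.8 FPKM in the sh-CFB libraries and 52.6, 61.4 and 56.3 in the sh-NC libraries (-0.48, adjusted p = 0.0297 by limma). Its processed copy ANXA2P2 averaged 25.1 ± 0.600 FPKM in sh-CFB and 36.0 ± 2.19 in sh-NC (SD, n = 3 each), so how reads fell between the copies is uncertain, and with GC content and length corrected for ANXA2 stood at -0.20 (adjusted p = 0.538). The ANXA2 call was also lost when any 1 library was left out, with adjusted p-values from 0.0577 to 0.161. ANXA1, the partner of S100A11, had a log2 difference of -0.51 (adjusted p = 0.253).

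Among 13 tested binding partners 3 fell, 0 rose and 10 did not pass, with a median of -0.17. The shares over all tested genes were 5.71% lower and 1.74% higher. CACYBP, the calcyclin-binding protein that pairs with S100A6, fell by 0.54 (adjusted p = 0.0461 by limma), TPM1, a tropomyosin, by 0.72 (adjusted p = 0.0164) and NCL, nucleolin, by 0.90 (adjusted p = 0.0414). Median-of-ratios factors left 0 of the 3 past the test, as did leaving out sh-CFB replicate 2, sh-NC replicate 1 or sh-NC replicate 2. With GC content and length corrected for, NCL was the one that fell, and 1 other binding partner rose. MYH9, the myosin heavy chain that S100A4 binds, had a log2 difference of -0.24 (adjusted p = 0.458), and FGF1, the cargo linked with S100A13, -0.29 (adjusted p = 0.344).

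None of the 4 tested receptor genes and none of the 7 tested genes of the plasminogen system passed by limma, with medians of -0.16 and -0.19. At an unadjusted p under 0.05, 1 receptor gene and 2 plasminogen genes were higher and 0 lower, beside the 7.28% and 18.6% of all tested genes. In the alternatives 1 receptor gene was called higher with a pseudocount of 0.1, with totals made equal and with voom on recovered reads, and 0 plasminogen genes were. AGER, which encodes RAGE, did not overlap between the groups and averaged 1.02 ± 0.130 FPKM in sh-CFB and 1.29 ± 0.0676 in sh-NC (SD, n = 3 each; log2 difference -0.24, adjusted p = 0.380 by limma). PLAUR, the urokinase receptor, had 121.1, 114.1 and 127.9 FPKM in the sh-CFB libraries and 100.3, 97.1 and 101.7 in the sh-NC libraries, without overlap (0.28, adjusted p = 0.0962). BSG, a receptor for S100A9, also did not overlap (0.47, adjusted p = 0.0502). With GC content and length corrected for, 1 receptor gene and 2 plasminogen genes were called higher.

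**Figure D4:**
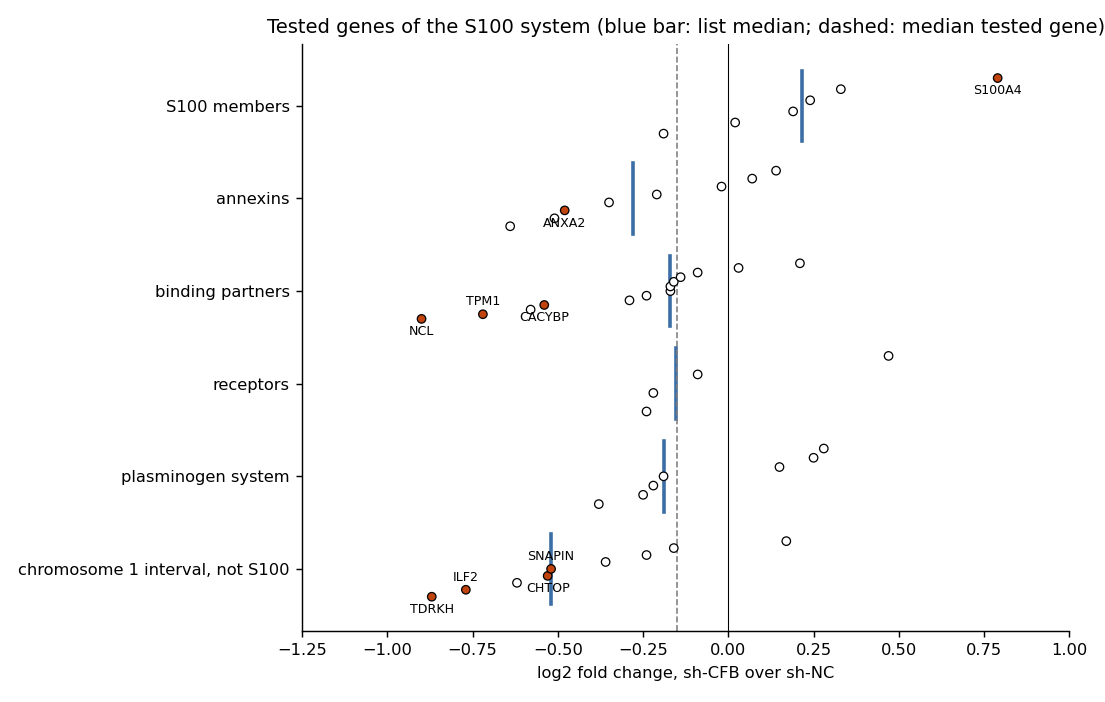
Log2 fold change, sh-CFB over sh-NC, of each tested gene in the S100 members and in lists of related genes; filled points passed the test and are named, blue bars are list medians and the dashed line is the median tested gene (-0.15). S100A4 is the only filled point above 0, and ANXA2, NCL, TPM1, CACYBP, TDRKH, ILF2, CHTOP and SNAPIN are filled below 0.

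The 3 members that lay higher without overlap were also higher in sh-CFB under the alternative settings. Much of this was fixed in advance. Groups that do not overlap keep their direction when libraries are left out, the pseudocount or filter is changed, or a replicate block is added. Under the 17 alternative settings the log2 difference ran from 0.63 to 1.03 for S100A4, from 0.27 to 0.54 for S100A13 and from 0.17 to 0.45 for S100A16. S100A4 passed the test under 10 of the 17 settings, S100A13 under 1 and S100A16 under 0.

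**Figure D5:**
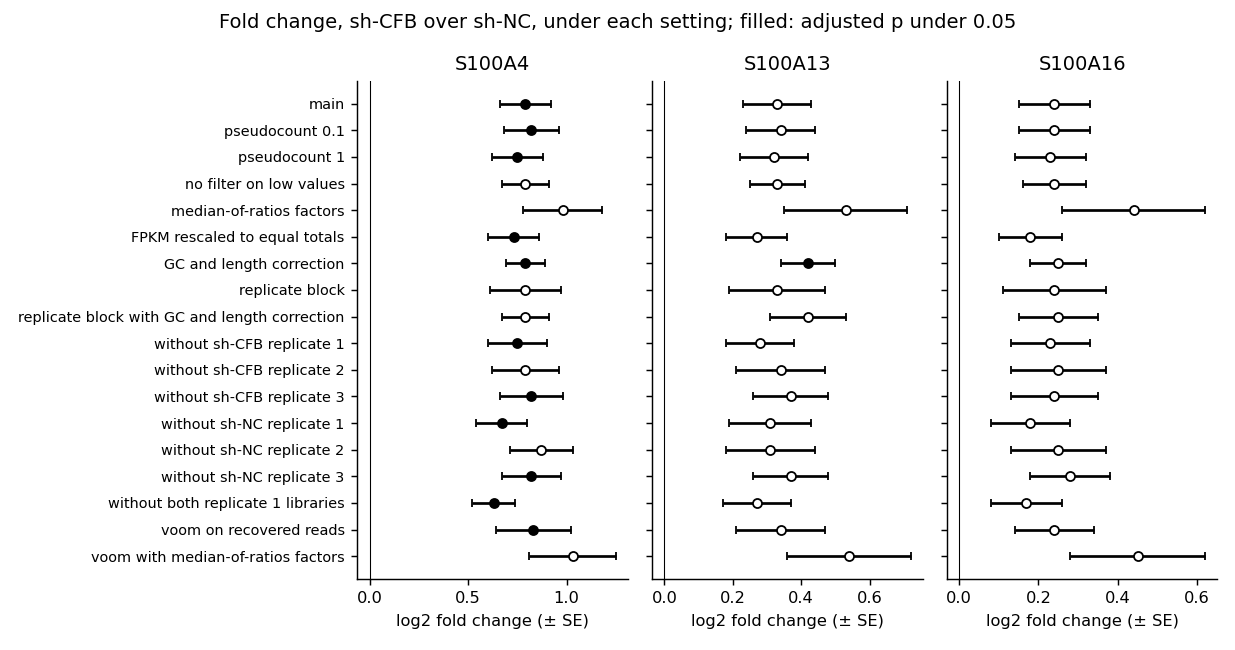
Log2 fold change, sh-CFB over sh-NC, with its SE, of S100A4, S100A13 and S100A16 with the values as reported (top, main) and under each of 17 alternative settings; filled points passed an adjusted p of 0.05. All points lie above 0, and filled points are mostly those of S100A4.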

How the data were processed

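Poly(A) RNA of 3 libraries a group was sequenced after a strand-keeping preparation, per the labels' protocols. FPKM were made by the authors and deposited as 1 table with 1 column per library; FastQC 0.11.9, Trimmomatic 0.39, STAR 2.7.3a, featureCounts 2.0.1 and GRCh38 were used, per the submitters' processing notes. The sources used here do not give the strand setting, the annotation release, how multi-mapping reads were treated or the FPKM formula. Reads and totals were recovered from the steps between FPKM values and came out whole within 0.02 for 99.89% of genes; intervals and floors cover counting error only. Values were tested as log2(FPKM + 0.5), which understates changes of low genes, for the 12466 genes whose mean reached 0.5 FPKM, with limma 3.58.1 (R 4.3.3, intensity trend, Benjamini-Hochberg over all tested genes at 0.05). Alternatives were other pseudocounts (0.1 and 1), no filter, median-of-ratios factors, equal totals, a replicate block, leaving out each library, and a correction that took natural splines (5 degrees of freedom) of GC content and log length out of each library for 12397 genes. The limma step was tested on simulated data, where genes simulated as unchanged made up more of the calls than the nominal level in every set, so an adjusted p just under 0.05 may be too small. Python 3.11.15, scipy 1.17.1 and matplotlib 3.10.9 did the rest. Members matched by symbol, 7 of 7; coordinates and exons came from GENCODE 29. Members and lists were chosen with earlier results of these data known. Some list genes, and a list that needs them, are not reported here, and the counts leave them out. Genes named were the members, all listed S100 genes, called list members, the main partner of each S100 protein and the genes with the most similar profile. Count models that need deposited counts were not run; voom on recovered reads, voom with median-of-ratios factors, and leaving out both replicate 1 libraries were chosen after seeing the data.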

Additional observations from a re-analysis of the deposited data

How the results depend on the processing

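Log2 differences are given for settings that moved a result, with limma's adjusted p. S100A4 did not pass by limma without the filter (0.79, adjusted p = 0.0505), with median-of-ratios factors (0.98, adjusted p = 0.0554) or with voom and those factors (1.03, adjusted p = 0.0524), and S100A13 passed after the GC and length correction (0.42, adjusted p = 0.0212), so that 0, 0, 0 and 2 members were called higher. S100A10, between -0.04 and 0.23 under all 17 alternatives, turned to -0.04 with equal totals, to -0.00 after the GC and length correction, with or without a replicate block, and to -0.03 without both replicate 1 libraries; S100A11 turned to 0.01 and 0.02 with median-of-ratios factors and with voom and those factors. The ratio of S100A4 to S100A6 differed by -0.12 with a pseudocount of 0.1, and that of S100A16 to S100A2 by -0.03 after the correction, while MYH9 turned to 0.03 without both replicate 1 libraries. The cause of these shifts was not tested. Leaving out 1 library at a time gave 0 to 1 members called higher, and ranges of 0.67 to 0.87 for S100A4, -0.02 to 0.08 for S100A10, 0.28 to 0.37 for S100A13 and -0.06 to 0.12 for the ratio of S100A16 to S100A2. Same-numbered libraries did not deviate together (correlations over genes of -0.54, 0.07 and -0.45 for replicates 1, 2 and 3). This cannot settle whether the numbers mark a shared batch, since the deviations of the replicate 1 libraries followed GC content. With a replicate block 0 members and 0 of 12466 genes passed by limma (1770 at an unadjusted p under 0.05). S100A4 then stood at 0.79 (adjusted p = 0.184 by limma, or 0.0933 with the GC and length correction). The planned edgeR and DESeq2 fits were not run, as the deposited values are not counts. Depth limits S100A6, S100A5, S100A14, S100A1 and CFB, which had few reads.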

Other observations

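Profiles over the 6 libraries were compared by the root mean square difference of centred log2(FPKM + 0.5) values, among protein-coding genes whose mean reached 2 FPKM. Nearest to S100A4 were ARIH2OS and SRRM3, at 0.069 each, against a spread of 0.413 of S100A4 itself. Both were called higher in sh-CFB (0.83, adjusted p = 0.0154, and 0.78, adjusted p = 0.0264, by limma). Their choice by likeness to S100A4 in the same libraries made these calls likely, so they lend the call of S100A4 no support. Nearest to S100A13 were MICA, a stress-induced ligand of an activating receptor of natural killer cells (0.025), and GFOD2 (0.031), and nearest to S100A16 EPHX1, the microsomal epoxide hydrolase (0.014), and TESK1, a testis-associated kinase (0.019). S100A2 had SMAGP (0.067) and VIM (0.076) nearest, S100A10 TBC1D10B (0.031) and RHOT2 (0.033), S100A11 ITPA (0.031) and CHTF18 (0.035), and S100A6 CACNG7 (0.084) and PORCN (0.092). The profile of S100A6 rests on 0 to 12 reads a library, so its likeness to other genes is uncertain. Between members S100A13 and S100A16 were closest (0.076), and S100A4 and S100A11 farthest apart (0.503). These are descriptions of likeness, with no test and nothing said of shared control.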
